A study of Mus musculus with 20 samples.

Results

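Integrins are the receptors by which cells hold on to matrix and to each other, and laminins are the trimeric proteins that build the basement membranes many of them bind. The genes described here were those of both count tables that are protein coding and named as an integrin alpha chain, an integrin beta chain or a laminin chain, which gave 37 of 54532 genes (18 Itga genes, 8 Itgb genes and 11 Lam genes). They were sorted by where they are best known to act into 8 leukocyte, 10 epithelial, 8 stromal, 5 vascular and platelet and 6 broadly expressed genes. The study followed liver metastases of Mc38 cells, a line from a colon adenocarcinoma of C57BL/6 mice, which were injected through the spleen into syngeneic wild-type mice, 6 to 8 weeks old and female by the methods. The 14 tissue libraries were con (liver of mice given normal saline, day 0, 2 libraries), L-con (tumor-free liver remote from the tumor, day 12, 1 library), Lt (low tumor content, day 9, 2 libraries), Mt3 (day 9), Mt2 and Mt1 (both day 11), which were 3 sets of 2 libraries with medium tumor content, and Ht (high tumor content, day 12, 3 libraries). All mice except con received 1000000 Mc38 cells. A separate table held 6 libraries of cells taken with microbeads from medium-content tumors of the Mt2 kind at day 11, 3 with F4/80 (a surface marker of mature macrophages) and 3 with CD11b (the integrin alpha M, carried by monocytes, neutrophils and macrophages). All groups were labelled WT.

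Integrins work as pairs of 1 alpha and 1 beta chain. Itgb2 pairs with Itgal, Itgam, Itgax and Itgad on leukocytes, Itgb7 pairs with Itga4 and Itgae, Itgb4 pairs with Itga6 in the hemidesmosomes of epithelia, and Itgb1 pairs with many alpha chains, including the laminin receptors Itga3, Itga6 and Itga7, the collagen receptors Itga1, Itga2, Itga10 and Itga11 and the fibronectin receptor Itga5. Laminins hold 1 alpha, 1 beta and 1 gamma chain, and are laid down beside nidogen, perlecan and type IV collagen. In normal liver the sinusoids lack a continuous basement membrane, which is present around larger vessels and bile ducts.

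Depth was 16032085 to 18246623 counts in the tissue libraries and 17785496 to 20548370 in the sorted cells. The labelled Ht replicates 1 and 3 were said in the study's methods to be the same sample, so they were summed and counted as 1, leaving 2 Ht samples, although their counts differed from each other beyond sampling noise (chi-square per degree of freedom 27.6, against 26.7 and 12.1 for the other Ht pairs). The summed hepatocyte markers (6 of 6 genes detected) took 143686 to 171744 CPM (counts per 1000000 counts of the scaled library) in con and 2391 to 3600 in Ht. Within Mt2 they were 76379 in replicate 1 and 17167 in replicate 2, and within Mt1 75648 and 18167, so the replicates of these groups stood apart. In replicates 1 and 2 of Lt they were 132971 and 69373, and of Mt3 106446 and 74647. Macrophage markers (6 of 6) summed to 265 to 419 CPM in con and 9347 to 14941 in the sorted cells. Among the sorted libraries CD11b+ replicate 3 stood apart, with 3504 CPM of summed neutrophil markers against 998 and 1105 in the other CD11b+ replicates. The labels call the tissue donors male and the study's methods call the mice female; Xist had at most 3 counts in any tissue library and at least 5547 in each sorted one, while Ddx3y had 348 to 1421 and 0. The table, the sex of the donors and the kind of sample therefore cannot be told apart in any comparison of sorted cells with tissue. By the methods each tissue group but L-con came from 2 livers, of which the sequenced pieces were parts. The labels tie no library to a liver or, for the sorted cells, to an animal, and the p-values measure the spread between these samples.

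In RPKM, a level scaled by gene length and library size, Itgb1 was the most abundant member in every tissue group, with 85.8 ± 5.5 in con and 170 ± 7.7 in Ht (SD, n = 2). Itgb5, the partner of Itgav in a vitronectin receptor, came next in every tissue group, with 29.8 ± 0.52 in con and 68.0 ± 5.1 in Ht. The order differed in the sorted cells, where Itgb5 led with 220 ± 9.4 in F4/80+ and 184 ± 6.0 in CD11b+ cells (n = 3), followed by Itgb2 with 184 ± 12 and 181 ± 27. In CD11b+ cells these neighbours did not differ beyond their spread. Itgb1 followed in both, with 85.5 ± 3.2 and 81.7 ± 8.3 RPKM. Leukocyte members made up 6.00% ± 2.1 of the summed RPKM of all 37 genes in con, 13.8% ± 0.62 in Ht, 47.4% ± 2.7 in F4/80+ and 53.9% ± 1.0 in CD11b+ cells. Stromal members made up 7.13% ± 0.10 in con and 2.04% ± 0.022 in Ht, with sums of 12.2 ± 1.3 and 10.1 ± 0.35 RPKM.

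**Figure D1:**
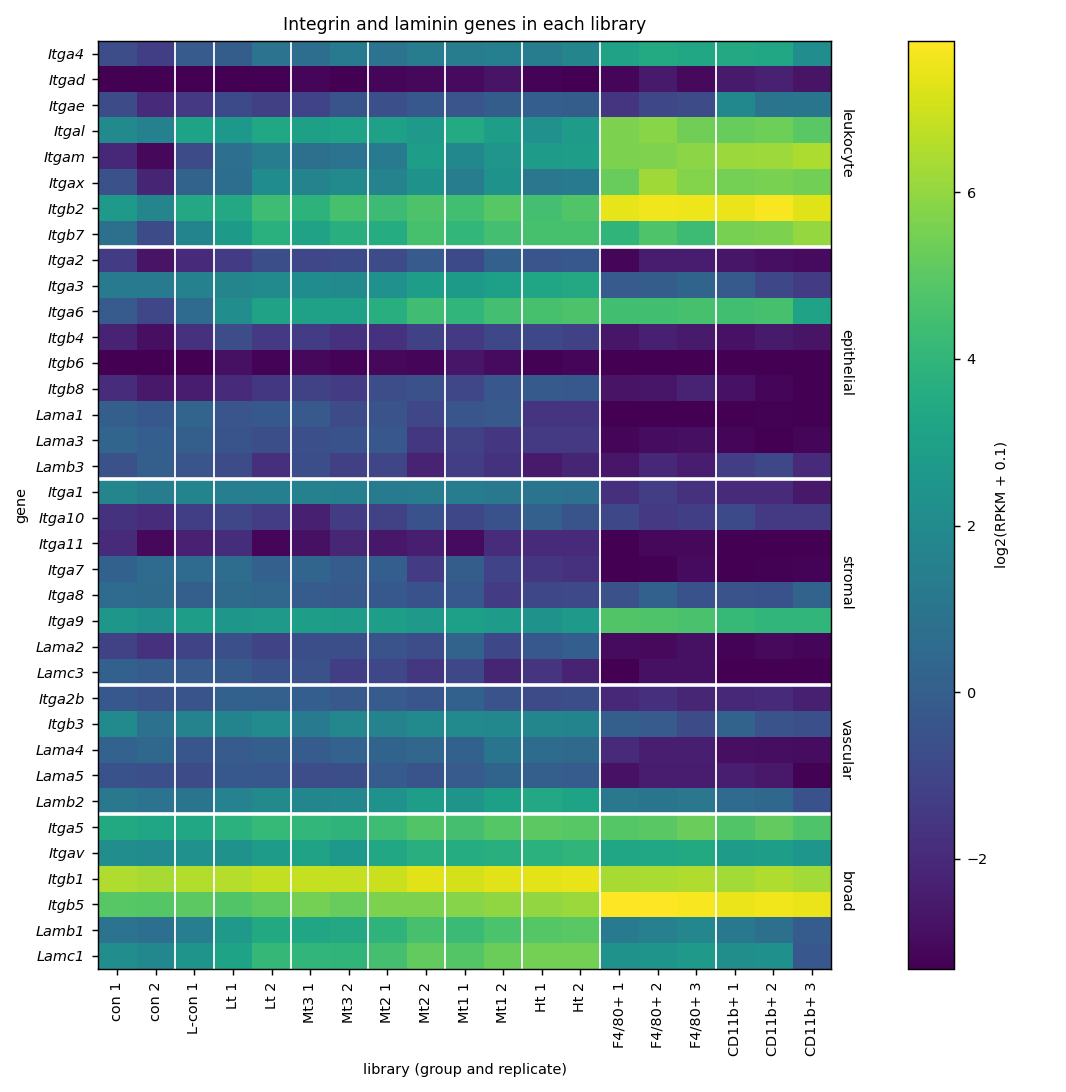
Level of the integrin and laminin genes, all but 1 shown (rows, ordered by role) in each library (columns, ordered by group; Ht 1 is the sum of the labelled replicates 1 and 3), as log2(RPKM + 0.1). Itgb1 and Itgb5 are bright in all columns, Itgal, Itgam, Itgax and Itgb2 are brightest in the 6 sorted columns, and Itgad and Itgb6 are at or near 0 throughout.

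Comparing con with Lt asks which of these genes had changed where tumor content was still low, and comparing con with Ht asks the same of tissue that was mostly tumor; both share the 2 con libraries. From con to Lt, 10 of the 35 members tested rose and none fell (Itgad and Itgb6 were too low to test), against 12.4% of all genes tested that were called higher and 0.256% called lower. Those 10 were Itgam, Itgal, Itgax and Itgb2, Itgb7 and Itga4, Itga6 and Itgb4, and the laminin chains Lamb1 and Lamc1. From con to Ht, 20 rose and 6 fell (Lamb3, Itga7, Lamc3, Lama3, Lama1 and Itga8), where 25.8% and 24.1% of all genes were called. A call needs a Benjamini-Hochberg adjusted p of at most 0.05 over all genes in edgeR's quasi-likelihood test and a log2 fold change of at least 1 in size. The groups did not overlap in 22 members higher and 5 lower in Lt (37.2% and 26.8% of all genes) and in 24 higher and 8 lower in Ht (45.6% and 40.1%). The median log2 fold change over the members was 0.60 in Lt and 1.55 in Ht, against 0.10 and 0.09 over all genes. By role, 6 of 7 tested leukocyte members rose in each comparison, 2 of 9 epithelial members in Lt and 6 of 9 in Ht, 2 of 6 broad members in Lt and 5 of 6 in Ht, 0 of 8 stromal members in Lt and 2 of 8 in Ht, and 0 of 5 vascular members in Lt and 1 of 5 in Ht. Without con replicate 2 the count of higher members in Lt was 2, and without Lt replicate 2 it was 4; the share of all genes called higher fell as well, to 4.2% and 5.33%. For con to Ht, scaling by total counts moved the median of all genes to 1.28 and gave 26 higher and 2 lower members (51.3% and 13.1% of all genes), and without con replicate 2 the count of higher members was 14 (22.6% of all genes). In bulk tissue, fewer cells of a type and less RNA per cell cannot be told apart.

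The beta 2 family marks leukocytes. Itgam, the alpha chain of complement receptor 3, had 0.733 and 0.0863 CPM in the con libraries (8 counts and 1 count), 7.98 and 12.7 in Lt, and 35.5 and 37.5 in Ht. It was thus close to absent in saline liver and higher in every tumor library. Its log2 fold change was 4.67 ± 0.78 (SE) in Lt (edgeR adjusted p = 0.00486) and 6.46 ± 0.77 in Ht (edgeR adjusted p = 0.000205), the largest of any member in both. Itgax, the alpha chain of complement receptor 4 on dendritic cells and macrophages, had 2.75 and 0.604 CPM in con, 7.39 and 19.9 in Lt, and 9.79 and 11.2 in Ht. The medium-content libraries, between 12.4 and 25.2 CPM, all stood above the Ht ones. Itgb2 itself, the shared beta chain, went from 19.7 and 9.92 CPM in con to 31.6 and 62.3 in Lt and 67.5 and 84.1 in Ht, a log2 fold change of 1.67 ± 0.43 and 2.34 ± 0.43. Itgal, the alpha chain of LFA-1 on lymphocytes and other leukocytes, was already at 25.4 and 19.1 CPM in con and reached 40.1 and 66.8 in Lt, a log2 fold change of 1.27 ± 0.32. In Ht it was 32.4 and 46.4 CPM, with a log2 fold change of 0.81 ± 0.32 that was not called (edgeR adjusted p = 0.0502).

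The makeup of the beta 2 partners is given here as a description, with no test. Itgam shares 68.7% of its exon bases with Gm49368, a gene on the same strand, and how reads there were counted is not given in the sources used here, so its level and its share may be too low in every library. Of the summed RPKM of Itgal, Itgam, Itgax and Itgad, Itgal held 89.8% ± 7.8 in con, 84.7% in L-con, 63.2% ± 4.1 in Lt and 38.5% ± 4.8 in Ht. Itgam held 1.87% ± 1.9 in con, 16.1% ± 1.5 in Lt and 47.3% ± 4.3 in Ht. The shares of Itgal in the Ht samples (35.1% and 41.9%) lay below both con libraries (84.3% and 95.3%). Mt2 and Mt1 spread widely, with 60.6% in 1 Mt2 library and 34.2%, below both Ht samples, in the other. Itgb2 stood at 1.24 ± 0.24 times the sum of its partners in con, 1.17 ± 0.065 in Lt and 1.61 ± 0.043 in Ht. The ratio was 1.18 ± 0.10 in F4/80+ and 1.14 ± 0.17 in CD11b+ cells, so of these groups Ht had the highest. Itgal, Itgam, Itgax and Itgad lie on mouse chromosome 7 (GRCm38), the last 3 of them next to each other between positions 128062640 and 128223816.

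**Figure D2:**
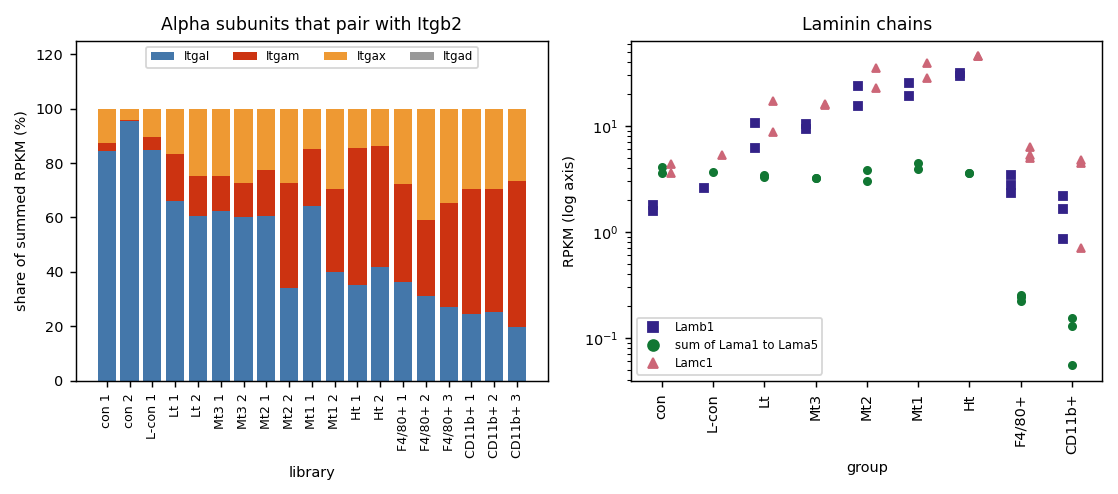
Left, share of the summed RPKM of the 4 alpha chains that pair with Itgb2 in each library; right, RPKM of Lamb1, Lamc1 and the sum of Lama1 to Lama5 by group on a log axis, 1 point per library. Itgal falls from 89.8% in con to 38.5% in Ht as Itgam grows, and Lamc1 rises from below 5 to above 40 RPKM while the alpha chain sum stays near 4 in tissue.

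The promoters of the most changed leukocyte alpha chain (Itgam), of its chromosome 7 neighbour (Itgax), of the leukocyte beta chain that rose most (Itgb7) and of the laminin chain that rose most (Lamb1) are shown for the reader to compare. Each runs 5′ to 3′ from 250 bases before to 50 bases after the RefSeq start (GRCm38.p6), at chr7:128062390-128062689 (+), chr7:128129300-128129599 (+), chr15:102231886-102232185 (-) and chr12:31265043-31265342 (+). Capitals mark GAGGAA or its reverse complement TTCCTC, the core that PU.1, an ETS factor of myeloid cells, is known to bind; both strands were searched.
Itgam: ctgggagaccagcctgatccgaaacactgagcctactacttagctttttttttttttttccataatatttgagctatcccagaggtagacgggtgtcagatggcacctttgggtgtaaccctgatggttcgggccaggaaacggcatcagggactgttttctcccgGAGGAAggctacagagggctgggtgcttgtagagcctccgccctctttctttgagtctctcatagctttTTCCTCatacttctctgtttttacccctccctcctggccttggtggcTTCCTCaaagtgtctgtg
Itgax: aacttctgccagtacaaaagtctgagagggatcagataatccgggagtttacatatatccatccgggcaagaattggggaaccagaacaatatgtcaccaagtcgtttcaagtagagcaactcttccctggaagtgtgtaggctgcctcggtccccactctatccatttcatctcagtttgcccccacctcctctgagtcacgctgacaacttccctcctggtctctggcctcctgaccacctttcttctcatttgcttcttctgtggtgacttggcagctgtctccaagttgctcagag
Itgb7: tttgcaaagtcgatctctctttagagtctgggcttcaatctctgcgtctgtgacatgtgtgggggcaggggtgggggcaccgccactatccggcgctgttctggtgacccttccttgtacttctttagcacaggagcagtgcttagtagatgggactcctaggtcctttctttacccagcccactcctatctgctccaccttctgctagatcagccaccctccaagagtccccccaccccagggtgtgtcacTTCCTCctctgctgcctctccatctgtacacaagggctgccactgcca
Lamb1: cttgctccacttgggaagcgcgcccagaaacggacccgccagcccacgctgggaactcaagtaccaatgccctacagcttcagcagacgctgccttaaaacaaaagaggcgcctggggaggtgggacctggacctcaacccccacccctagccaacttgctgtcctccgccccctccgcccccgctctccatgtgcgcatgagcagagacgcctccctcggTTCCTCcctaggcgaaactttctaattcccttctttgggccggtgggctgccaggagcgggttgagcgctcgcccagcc
The Itgam promoter holds the letters 3 times, with first bases 84 and 15 bases before and 32 bases after the start; Itgb7 and Lamb1 hold them once, and Itgax not at all. Of all 32851 promoters in the same reference 28.3% hold them. They are also in 14 of the 23 member genes with a promoter there, among them genes of every role. Members are counted by gene, with a hit in any of their 26 promoters, so these shares are not in the same unit. GGGCGG, the GC box, is in 35.7% of all promoters and in 11 of the 23. TGAGTCA and TATAAA were searched as well, and are in 5.20% and 13.6% of all promoters and in 2 and 0 of the 23. These matches describe the letters and not binding.

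Itgb7 and its partners differed from each other. Itgb7, the beta chain of the gut-homing receptors, had 4.49 and 1.38 CPM in con, 18.5 and 36.8 in Lt, and 66.7 and 65.4 in Ht. Every tumor library lay above both con libraries, and the log2 fold change was 3.25 ± 0.58 in Lt (edgeR adjusted p = 0.00656) and 4.48 ± 0.59 in Ht (edgeR adjusted p = 0.000306). Itga4, which pairs with Itgb7 or Itgb1 and binds Vcam1, rose from 7.33 and 4.40 CPM to 12.2 and 25.1 in Lt and 34.0 and 46.1 in Ht. Itgae, the alpha chain that binds E-cadherin, stayed low at 2.20 and 0.690 CPM in con and 4.13 and 4.07 in Ht. It was called higher in Ht, at a log2 fold change of 1.49 ± 0.51, a call lost without con replicate 2 and without either Ht sample. Madcam1, the mucosal ligand of Itgb7, was too low to test in tissue.

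Markers of the cells that carry these integrins were mostly higher than in con too, but not all in step with them. Between Lt and Ht the monocyte and neutrophil sums overlapped, while Itgam, Itgb7 and Itga4 were higher in both Ht samples than in either Lt library, with no test. Monocyte markers had 9.49 to 12.1 summed CPM in con, 113 to 283 in Lt and 144 to 192 in Ht, with 3 of 4 genes called higher in Lt and 4 of 4 in Ht. Macrophage markers went from 265 to 419 CPM to 701 to 1008 and 1553 to 1569, with 3 and 5 of 6 called higher. Neutrophil markers went from 2.85 to 4.58 CPM to 19.8 to 21.6 and 15.7 to 20.2, with 4 and 2 of 6 called. Dendritic cell markers went from 14.8 to 18.1 CPM to 22.7 to 27.0 and 30.4 to 30.5, with 2 of 5 called higher in each (Ccr7 and Flt3). T and NK markers had 3.19 to 10.3 CPM in con, 6.94 to 21.6 in Lt with 0 of 6 called, and 17.5 to 24.5 in Ht with 2 of 6 called higher (Ncr1 and Klrb1c). B markers had 1.12 to 1.65, 3.36 to 5.14 and 2.64 to 2.90 CPM, with 1 of 3 called in each. Their part in the changes of the leukocyte integrins was not tested.

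**Figure D3:**
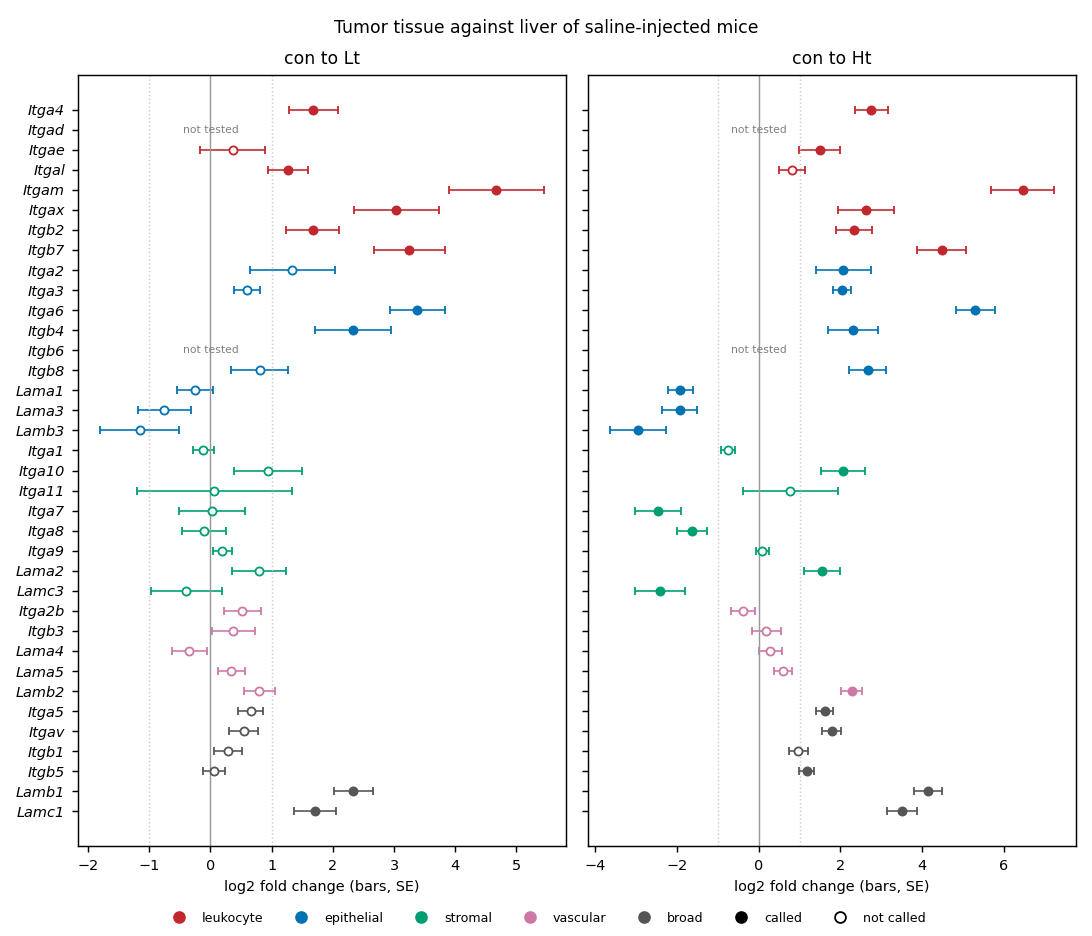
Log2 fold change (points) with SE (bars) of the tested members, all but 1 shown, from con to Lt (left) and con to Ht (right), coloured by role; filled points were called and dotted lines mark a log2 fold change of 1 in either direction. Leukocyte members lie to the right in both panels, and the 6 members called lower appear only in the right panel; the difference between the panels was not tested.

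Among epithelial members Itga6 changed most. Itga6, a laminin receptor with Itgb1 or Itgb4, had 7.42 and 3.8 CPM in con, 39.0 and 77.3 in Lt, and 212 and 237 in Ht, a log2 fold change of 3.38 ± 0.45 (edgeR adjusted p = 0.00221) and 5.31 ± 0.48 (edgeR adjusted p = 9.16e-05). Its epithelial partner Itgb4 stayed low, with 0.824 and 0.259 CPM in con, 3.66 and 1.80 in Lt and 3.03 and 2.42 in Ht. Itgb4 was called in both, at 2.33 ± 0.62 and 2.32 ± 0.61, but the con libraries held only 9 and 3 counts. Per length, Itgb4 stood at 0.115 ± 0.039 times Itga6 in con and 0.0158 ± 0.0038 times in Ht. Itga3, the other main laminin receptor, went from 13.7 and 13.2 CPM to 52.3 and 60.0 in Ht (log2 fold change 2.04 ± 0.22), so that Itga6 passed from 0.262 ± 0.11 to 2.54 ± 0.044 times Itga3. Itgb8, which with Itgav can activate TGF-beta, rose 6.36-fold in Ht, to 8.73 and 8.06 CPM, and Itga2 rose 4.21-fold at single-digit CPM. Itga2 was not called without con replicate 2 or without either Ht sample.

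The epithelial laminin chains Lama1, Lama3 and Lamb3 fell in Ht. Lama1 went from 9.07 and 7.16 CPM in con to 2.21 and 2.12 in Ht, Lama3 from 12.2 and 9.57 to 2.88 and 2.86, and Lamb3 from 3.85 and 6.12 to 0.509 and 0.806. Ht lay below con in every one of these, with log2 fold changes of -1.92 ± 0.30, -1.94 ± 0.44 and -2.95 ± 0.68, and none of the 3 was called in Lt. With total-count scaling Lama1 and Lama3 still had a lower value in Ht (-0.73 and -0.75) but were not called. Markers of cholangiocytes and epithelial tumor cells (6 of 6 detected) summed to 535 to 583 CPM in con and 117 to 226 in Ht. Cdh1, Krt8 and Krt18 were called lower, while Krt7, Epcam and Krt19 were not called (log2 fold changes 1.57, -0.06 and -0.68). Hepatocyte markers fell as given above. The part of these markers in the fall of these laminin genes was not tested.

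The beta 1 and gamma 1 chains common to most laminins behaved otherwise. Lamb1 had 17.8 and 15.8 CPM in con, 61.6 and 107 in Lt, between 92.7 and 234 in Mt3 and Mt2, and 293 and 313 in Ht. The con libraries were the lowest and the Ht samples the highest of all tissue libraries. Its log2 fold change was 2.33 ± 0.32 in Lt (edgeR adjusted p = 0.00238) and 4.16 ± 0.34 in Ht (edgeR adjusted p = 9.02e-05). Lamc1 went from 35.9 and 29.6 CPM to 72.8 and 141 in Lt and 376 and 377 in Ht, a log2 fold change of 1.71 ± 0.34 and 3.51 ± 0.37. Lamb2, the alternative beta chain of vessels and synapses, rose less, from 12.9 and 11.0 CPM to 63.4 and 53.7 in Ht (log2 fold change 2.28 ± 0.26), and Lamb1 went from 0.864 ± 0.028 to 3.20 ± 0.52 times Lamb2 per length. Alpha chains give each trimer its tissue type. The sum of Lama1 to Lama5 was 3.84 ± 0.32 RPKM in con, 3.39 ± 0.082 in Lt and 3.59 ± 0.012 in Ht. Lamc1 was thus 1.03 ± 0.053 times the alpha chain sum in con and 3.83 ± 1.8 times in Lt. The medium groups had ratios of 4.92 ± 0.030 (Mt3), 8.71 ± 4.0 (Mt2) and 7.99 ± 1.1 (Mt1), and Ht had 12.7 ± 0.071. Both Lt libraries (2.55 and 5.11) lay above both con libraries (0.992 and 1.07). Within the alpha chains Lama2, of muscle and stroma, was higher in Ht at 12.1 and 14.8 CPM against 5.77 and 3.28 (log2 fold change 1.55 ± 0.44, not called without con replicate 2 or without Ht replicate 2), while Lama4 and Lama5, the chains of vessel basement membranes, had log2 fold changes of 0.28 ± 0.28 and 0.59 ± 0.22 that were not called.

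Of the genes known to assemble with laminins, 6 of 10 basement membrane partners were called higher in Lt, against 12.4% of all genes, and 6 higher and 2 lower in Ht, against 25.8% and 24.1%. Nid1, the nidogen that binds the gamma 1 chain, rose 5.11-fold in Lt and 16.3-fold in Ht, and Hspg2, which encodes perlecan, 4.14-fold and 16.2-fold. Sparc and Col4a1 rose 11.3-fold and 10.4-fold in Ht, whereas Col18a1 and Ntn4 fell 4.36-fold and 2.99-fold. Of the other laminin receptors 0 of 4 were called in Lt, while Sdc1 and Sdc4 fell 3.91-fold and 6.45-fold in Ht. Stellate cell and fibroblast markers moved beside these genes, from 259 to 344 summed CPM in con to 726 to 1028 in Lt and 1649 to 1823 in Ht, with 4 of 7 called higher in each and Lrat called lower in Ht. Endothelial markers were 428 to 470 CPM in con, 382 to 474 in Lt and 163 to 176 in Ht. In Ht 4 of 8 were called lower (Clec4g, Stab2, Tek and Kdr). Emcn, Cdh5, Tie1 and Pecam1 were not called, with log2 fold changes of 0.96, -0.05, -0.49 and -0.54. Their part in the laminin changes was not tested.

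The broad receptors for fibronectin and vitronectin rose in Ht. Itga5 went from 52.7 and 46.4 CPM in con to 159 and 149 in Ht, Itgav from 46.2 and 43.6 to 147 and 167, and Itgb5 from 107 and 105 to 229 and 255. All 3 were called in Ht, with log2 fold changes of 1.62 ± 0.21, 1.79 ± 0.24 and 1.17 ± 0.18, and none in Lt; the difference between Lt and Ht was not tested. Itgb1 went from 366 and 334 CPM to 673 and 718 in Ht, a log2 fold change of 0.97 ± 0.23 (edgeR adjusted p = 0.00544) that stayed under the fold limit. Itgb3, the platelet, endothelial and osteoclast partner of Itgav, had 22.9 and 10.1 CPM in con and 19.6 and 18.4 in Ht, with overlapping groups and a log2 fold change of 0.19 ± 0.35. Itga2b, its platelet partner, had 4.03 and 3.36 CPM in con and 2.76 and 2.97 in Ht; of the platelet markers, Gp1bb was at 0 in every library and the summed level was at most 2.69 CPM in tissue. Among the ligands of these receptors Thbs1, Tnc and Spp1 rose 268-fold, 14.3-fold and 11.0-fold in Ht, and the plasma proteins made by hepatocytes, Fga, Fgb, Fgg, Vtn and C3, fell between 15.1-fold and 27.7-fold. In the list of matrix and plasma ligands 4 of 12 were called higher in Lt, and 5 higher and 5 lower in Ht, where 12.4%, 25.8% and 24.1% of all genes were called.

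Of the 8 stromal members 2 were called higher and 3 lower from con to Ht, where 25.8% and 24.1% of all genes were called. Itga1, the collagen receptor of sinusoidal and stellate cells, went from 61.2 and 47.4 to 34.6 and 30.9 in Ht, under the fold limit (log2 fold change -0.75 ± 0.17, and 0.44 with total-count scaling, where the direction turned). Itga8, of stellate and smooth muscle cells, fell from 10.1 and 10.0 CPM to 3.17 and 3.33 (-1.64 ± 0.36), and was not called with total-count scaling. Itga7, the laminin receptor of muscle, fell from 8.15 and 11.4 CPM to 1.92 and 1.65 (-2.46 ± 0.57). Lamc3 fell from 6.04 and 5.09 CPM to 1.37 and 0.696 (-2.41 ± 0.61), a call lost without Ht replicate 2 and with total-count scaling (-1.23). Itga10 rose to 4.97 and 3.30 CPM from 1.10 and 0.863, a call lost without con replicate 2 or Ht replicate 1; 33.5% of its exon bases are shared with Gm42957, so its level may be too low. Itga9, a receptor for tenascin and osteopontin, overlapped between con (44.5 and 36.7 CPM) and Ht (40.1 and 47.4). The 6 medium libraries had 49.4 to 60.0 CPM of Itga9, above both groups, and the difference between medium tissue and Ht was not called (log2 fold change -0.33 ± 0.13, and 0.23 with total-count scaling, where the direction turned). Itga11 stayed under 1 CPM in every tissue library.

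Tumor-free liver of tumor-bearing mice, with its single library, allows no test. L-con lay above both con libraries in 19 of the 35 tested members and below both in 5, where 38.3% and 29.7% of all genes did so. Of the 35, 7 were over 2-fold above the con mean, against 12.4% of all genes, and none was over 2-fold below, against 4.13%. They were Itgam (2.42 CPM), Itgax (5.18), Itgb7 (8.64), Itgal (56.9), Itgb2 (32.1), Itga6 (12.4) and Itgb4 (1.38). Leukocyte members were 5 of these 7. The count rests on con replicate 2, by a check added after seeing the data: against con replicate 1 alone 2 members (Itgal and Itgam) were over 2-fold higher, where 13.5% of all genes were, and against con replicate 2 alone 10 were, where 16.7% were. The monocyte markers summed to 63.9 CPM in L-con, above con and below every Lt library, and the macrophage markers to 691. Stellate cell and fibroblast markers summed to 451 CPM, above con, and hepatocyte markers to 124753, below con; their part in these values was not tested. Lamb1 and Lamc1, at 25.7 and 43.9 CPM, were 1.53 and 1.34 times the con mean.

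Between medium and high tumor content few members differed by the call rule. With the 3 medium groups averaged and set against Ht, 0 of 35 members were called higher and 2 lower, against 1.5% and 13.4% of all genes. The groups did not overlap in 13 members higher and 6 lower (18.7% and 22.8% of all genes). Without the fold limit 6 were called higher (6.1% of all genes), and with DESeq2 2 higher and 3 lower (2.59% and 14.6%). At an unadjusted p under 0.05 there were 11 higher and 6 lower (16.5% and 24.1% of all genes). Scaling by total counts gave 13 higher and 1 lower (15.1% and 10.3%), with a median over all genes of 0.55 in place of 0.00, so the split between directions rests on the scaling. Lama1 had 4.02 to 7.50 CPM in the medium groups and 2.21 and 2.12 in Ht (log2 fold change -1.47 ± 0.26, edgeR adjusted p = 0.00912). Itga7 had 2.41 to 9.19 CPM in the medium groups and 1.92 and 1.65 in Ht (-1.69 ± 0.49, edgeR adjusted p = 0.0383). Ht lay below all 6 medium libraries in both genes. Without Ht replicate 1 or Ht replicate 2 none of the genes tested was called in either direction, so the loss of both calls there is not particular to them; the log2 fold changes were then -1.50 and -1.44 for Lama1 and -1.81 and -1.59 for Itga7. Itga7 was also lost without either Mt3 replicate or Mt1 replicate 1. Lamb1, Lamc1, Lamb2 and Itga3 were 1.88-fold, 1.82-fold, 1.82-fold and 1.75-fold higher in Ht with adjusted p under the limit and a fold under it.

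The second set of comparisons asks which of the genes raised in tumor tissue are carried by the macrophages and other myeloid cells themselves. Against Mt2 tissue, F4/80+ cells had 7 members higher and 18 lower of 35, where 17.2% and 25.2% of all genes were called, and CD11b+ cells had 9 higher and 19 lower, where 17.6% and 26.3% were. In F4/80+ cells the higher members were Itgax, Itgam, Itgb2, Itgal and Itga4 with Itgb5 and Itga9. CD11b+ cells had these and Itgae and Itgb7. Itgam encodes CD11b, by which the CD11b+ cells were selected, so its place in their count is no finding. Both comparisons share the 2 Mt2 libraries. The groups did not overlap in 9 members higher and 21 lower for each population, against 33.5% and 38.1% of all genes for F4/80+ and 29.4% and 35.6% for CD11b+ cells. Every vascular member (5 of 5) and 7 of 9 tested epithelial members were lower in each, as were 4 and 5 of 8 stromal members. Leaving out any library kept 7 and 18 for F4/80+, and 8 to 9 and 18 to 19 for CD11b+. With a minimum of 10 counts in every library the lower calls fell to 6 of 17 tested in each (18.4% and 19.2% of all genes), since the members near 0 in sorted cells then go untested.

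Itgax, with 14.5 and 24.5 CPM in Mt2, reached 180, 358 and 258 in F4/80+ and 215, 229 and 207 in CD11b+ cells (log2 fold changes 3.76 ± 0.53 and 3.47 ± 0.53). Itgam had 11.6 and 36.0 CPM in Mt2, 245, 254 and 296 in F4/80+ cells (3.47 ± 0.46) and 350, 366 and 439 in CD11b+ cells, where it was the gene of the selection and its level is no finding. Itgb2 had 60.2 and 80.6 CPM in tissue and 473 to 639 in all 6 sorted libraries, and Itgal 53.9 and 41.9 against 208 to 371. None of these sorted libraries overlapped with Mt2. Itgb7 was unlike them: F4/80+ cells had 42.6, 74.5 and 54.8 CPM, overlapping with Mt2 (32.4 and 65.2), and CD11b+ cells had 127, 136 and 184 (log2 fold change 1.61 ± 0.42, not called without Mt2 replicate 1).

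Itgb5 and Itga9 were high in the sorted cells although neither was placed among the leukocyte members. Itgb5 had 173 and 176 CPM in Mt2, 803, 796 and 742 in F4/80+ and 644, 678 and 638 in CD11b+ cells, log2 fold changes of 2.16 ± 0.19 and 1.91 ± 0.19 (edgeR adjusted p = 5.54e-07 and 1.14e-06). Its usual partner Itgav was not higher, at 108 and 137 CPM in Mt2, 104 to 117 in F4/80+ and 61.8 to 79.5 in CD11b+ cells. Itgb3, another partner of Itgav, was lower at 2.86 to 6.27 CPM against 18.1 and 23.4. Itgb5 thus stood at 315 ± 102 times Itgb3 per length in F4/80+ and 14.2 ± 2.4 times in Mt2. Itga9 had 55.3 and 49.4 CPM in Mt2, 190 to 212 in F4/80+ (1.96 ± 0.16) and 123 to 137 in CD11b+ cells (1.29 ± 0.16).

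Itga6 did not differ by the test between tumor tissue and sorted cells. It had 112 and 191 CPM in Mt2, 195, 196 and 217 in F4/80+ cells, and 196, 215 and 76.2 in CD11b+ cells, where replicate 3 was the low one. Its log2 fold change was 0.42 ± 0.41 in F4/80+ and 0.10 ± 0.40 in CD11b+ cells. Itgb4 and Itga3, in contrast, were lower: Itgb4 had 1.43 and 2.50 CPM in Mt2 and 0.332 to 0.688 in the sorted cells, and Itga3 28.1 and 42.9 against 1.63 to 6.36. In these cells Itga6 was 24.2 ± 2.4 times Itga3 per length (F4/80+) and 37.1 ± 15 times (CD11b+), against 2.67 ± 0.21 in Mt2. Itga5, at 102 and 135 CPM in Mt2 and 131 to 188 in the sorted cells, was not called either.

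**Figure D4:**
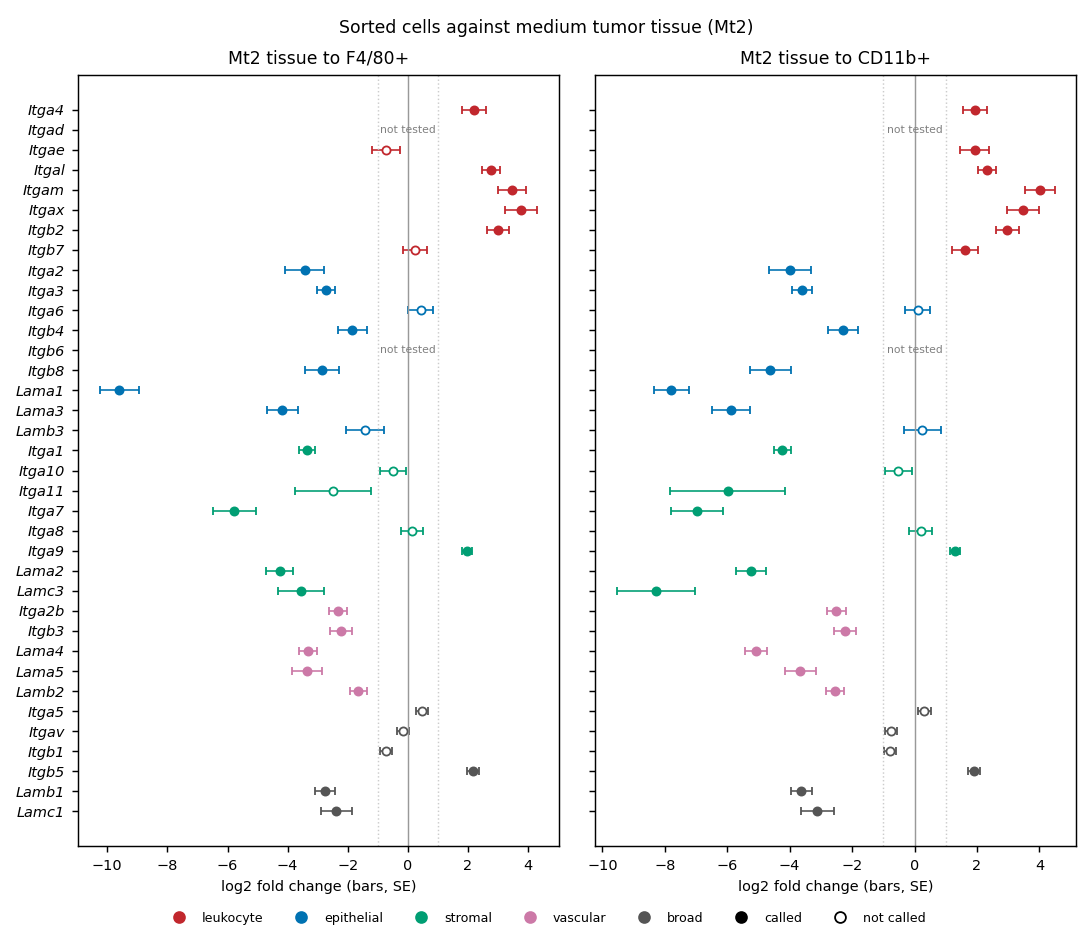
Log2 fold change (points) with SE (bars) of the tested members, all but 1 shown, from Mt2 tissue to F4/80+ cells (left) and to CD11b+ cells (right), coloured by role; filled points were called. The called leukocyte members, 5 in F4/80+ and 7 in CD11b+ cells, lie to the right with Itgb5 and Itga9, and all 5 vascular members lie to the left. Itgam, among the called members of CD11b+ cells, was the gene of their selection. Points for genes at 0 counts in the sorted cells (Lama1 in F4/80+, Lamc3 and Itga11 in CD11b+) depend on the prior count of the fit.

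Laminin chains were low in the sorted cells. The sum of the 5 alpha chains was 0.241 ± 0.016 RPKM in F4/80+ and 0.113 ± 0.051 in CD11b+ cells, against 3.45 ± 0.58 in Mt2. Lama1 had 0 counts in all 3 F4/80+ libraries and was at least 33.4-fold lower than in Mt2 (floor of 3 counts per library), and CD11b+ cells had 1 count in 3 libraries. Lamc3 had 0 counts in the CD11b+ libraries, at least 13.6-fold lower, and 0, 5 and 5 counts in F4/80+. Itga11 also had 0 counts in CD11b+ cells, at least 2.67-fold lower. Lamc1 and Lamb1 were lower but present, with 41.1, 44.2 and 52.4 CPM of Lamc1 in F4/80+ and 37.0, 39.4 and 5.86 in CD11b+ cells against 188 and 290 in Mt2. Lamb1 had 23.2 to 34.1 CPM in F4/80+ and 21.8, 16.4 and 8.53 in CD11b+ cells, against 152 and 234. CD11b+ replicate 3 was the lowest in both. The stellate and fibroblast markers (99.4 to 141 CPM in F4/80+, 32.7 to 85.5 in CD11b+, none of the 7 at 0) and the endothelial markers (117 to 236 and 54.4 to 61.2 CPM, none of the 8 at 0) were present as well, and their part in these laminin levels was not tested.

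Between F4/80+ and CD11b+ cells no member passed the main test. Of the 27 members tested 0 were called in either direction, where 0.00701% of all genes were called higher and 0.0701% lower in F4/80+ cells. At an unadjusted p under 0.05 there were 5 higher and 4 lower members (4.89% and 5.64% of all genes), and DESeq2 called 0 higher and 2 lower (Itgae and Itgb7), where it called 0.932% and 1.17% of all genes. Itgae had 16.5, 8.51 and 8.71 CPM in CD11b+ cells and 1.06, 1.97 and 2.32 in F4/80+ cells, a log2 fold change of -2.70 ± 0.39 (edgeR adjusted p = 0.0580). Itgb7 had a log2 fold change of -1.43 ± 0.25 (edgeR adjusted p = 0.0727). The groups did not overlap in either gene. Without CD11b+ replicate 3 both were called, at -2.84 (edgeR adjusted p = 0.0241) and -1.24 (edgeR adjusted p = 0.0369), where 0.654% of all genes were called lower. Itgam, lower in F4/80+ cells at -0.59 ± 0.17, was used for the selection of the other group.

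Members higher in F4/80+ cells with groups that did not overlap were 11 of 27 (15.1% of all genes did so) and members lower were 4 (8.73%). Lama4, an endothelial laminin chain, had 1.92, 1.08 and 1.13 CPM in F4/80+ and 0.475, 0.381 and 0.348 in CD11b+ cells (log2 fold change 1.71 ± 0.42, edgeR adjusted p = 0.202). Itga9 (0.62 ± 0.14) and Itgav (0.54 ± 0.15) were higher in each F4/80+ library than in any CD11b+ library without passing the test. Lamb3 went the other way, with 1.99, 2.88 and 0.987 CPM in CD11b+ against 0.404 to 0.885 in F4/80+ cells. Dendritic markers were 47.4 to 81.6 summed CPM in CD11b+ and 17.4 to 31.5 in F4/80+ cells, with Ccr7 called lower in F4/80+, and Cdh1, a ligand of Itgae, had a log2 fold change of -2.14 ± 0.28 (edgeR adjusted p = 0.0529). Endothelial markers summed to the levels given above, and neutrophil markers to 158 to 448 CPM in F4/80+ and 998 to 3504 in CD11b+ cells, with none called. Their part in the differences was not tested.

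The intracellular machinery of adhesion links integrin tails to actin. Of its 30 listed genes, 8 were called higher from con to Lt, against 12.4% of all genes, and 16 higher and 4 lower from con to Ht, against 25.8% and 24.1%. Src, Apbb1ip, Flna and Parvg rose most in Ht, between 10.4-fold and 22.4-fold, and Lims2 and Tns1 fell 12.4-fold and 6.16-fold. Against Mt2 tissue, 9 were higher and 11 lower in F4/80+ cells, and 9 higher and 10 lower in CD11b+ cells, where 17.2% and 25.2% of all genes were called for F4/80+ and 17.6% and 26.3% for CD11b+ cells. Fermt3, the kindlin of blood cells, was 13.8-fold and 12.7-fold higher, and Parvg, the parvin of blood cells, 10.2-fold and 9.54-fold. Fermt2, the kindlin of adherent cells, was 21.8-fold and 36.9-fold lower, and Parva 11.1-fold and 17.6-fold. Lims2 was 40.8-fold and 92.2-fold lower, and Fermt1, the kindlin of epithelia, had 6 to 14 counts in Mt2, 0 in the F4/80+ libraries and 0 to 5 in the CD11b+ libraries, where it was not called (log2 fold change -1.86 ± 0.82). Of the talins, Tln1 was 5.11-fold and 4.41-fold higher and Tln2 5.31-fold and 10.8-fold lower. Among cell surface ligands 3 of 7 tested were higher and 3 lower in each population; Icam1, which binds Itgal and Itgam with Itgb2, was 4.65-fold and 3.88-fold higher, and Vcam1, which binds Itga4, 4.40-fold and 3.31-fold. Of the basement membrane partners 0 were higher and 7 and 8 of 10 lower, and of the other laminin receptors 4 and 3 of 4 were lower. Between F4/80+ and CD11b+ cells none of these listed genes was called by edgeR.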

How the data were processed

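Raw counts of reads per gene were deposited by the authors in 2 tables, 1 for tissue and 1 for sorted cells, with the same 54532 genes. The submitters' processing notes name CASAVA, HISAT2 2.0.5, featureCounts 1.5.0-p3 and the builds GRCm38 and mm10; the library kit named, NEBNext Ultra RNA, does not mark strand by its name, the strand setting of the counting is not given in the sources used here, and 8 of the 37 genes overlap the span of another protein-coding gene. By the exons of GENCODE M21 (GRCm38), whose summed lengths equal those in the tables for these 8, 6 share exon bases with it and 2 of them (Itgam and Itga10) over 10%. Columns were matched to samples by the labels, and the tables were joined by gene identifier.

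The members and all gene lists were chosen with earlier results of these data known. Counts were fitted with edgeR 4.0.16 in R 4.3.3 (filterByExpr, TMM scaling, quasi-likelihood test, two-sided) on whole tables: tissue groups together, sorted cells together, and both jointly for sorted cells against Mt2. Adjusted p-values are Benjamini-Hochberg over all genes tested, and a call needs an adjusted p of at most 0.05 and a log2 fold change of at least 1 in size. CPM and RPKM were computed from the deposited counts on TMM-scaled library sizes of all samples, with the gene lengths in the tables, and SD is over libraries. By rule, full values go to up to 8 called members per comparison by size of fold change, to their heterodimer or trimer partners and to the members highest per length in a group, and up to 4 called genes are named per list by size of fold change; other members and list genes were named after their values were seen.

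Replicate numbers did not pair the samples: deviations of same-numbered samples correlated at -0.15 for con and Lt, and no set of 3 pairs exceeded 0.1 throughout. Alternatives were DESeq2 1.42.0, total-count scaling, other filters, no fold limit, a replicate block, leaving out each replicate, and other treatments of Ht. The fits were tested on simulated data with 200 changed genes. Promoters came from RefSeq (GRCm38.p6); 23 of 37 genes matched. Values of 1 member are not reported here, and it stays in the counts. Floors and zero-count limits cover counting error only.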

Additional observations from a re-analysis of the deposited data

How the results depend on the processing

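Counts of called members were recomputed under every alternative. Leaving out 1 replicate at a time gave 2 to 9 members higher from con to Lt (and 0 lower), 14 to 21 higher and 5 to 6 lower from con to Ht, 0 to 3 higher and 0 to 3 lower from medium tissue to Ht, 0 higher and 0 to 2 lower from CD11b+ to F4/80+ cells, 7 higher and 18 lower from Mt2 to F4/80+ cells, and 8 to 9 higher and 18 to 19 lower from Mt2 to CD11b+ cells; where a group was left with 1 library, that library was assumed to vary like the other groups. From medium tissue to Ht, no gene of the whole table was called without Ht replicate 1 or without Ht replicate 2. From medium tissue to Ht, the members called higher numbered 6 without a fold limit, 2 with DESeq2, 2 without a filter, 2 with the replicate block, 2 with Ht as 3 libraries and 13 with total-count scaling, and those called lower 1 with total-count scaling and 1 in a fit of only the groups compared. Total-count scaling gave 2 lower from con to Ht. DESeq2 and no filter each gave 2 lower from CD11b+ to F4/80+ cells. A minimum of 10 counts in every library gave 6 lower from Mt2 to each sorted population, because fewer genes were tested; for the other changes the cause was not tested. Total-count scaling turned the direction of Itga1 (0.44 from con to Ht and 0.049 from medium tissue to Ht) and of Itga9 (0.23 from medium tissue to Ht), none of them called. The other 134 counts stayed within 1.5 times the value reported. The replicate block changed no other count of members by over 1.5 times; over all genes it gave 108 lower from con to Lt, 438 higher from medium tissue to Ht, and 28 higher and 50 lower from CD11b+ to F4/80+ cells; the labelled numbers are shared numbers only, and F4/80+ and CD11b+ samples did not correlate best with their own number. Crossing the numbers, chosen after seeing the data because same-numbered con and Lt samples and medium and Ht samples correlated negatively, gave 9 higher and 0 lower from con to Lt, and 2 higher and 3 lower from medium tissue to Ht. Members with 0 to 3 counts in sorted cells are limited by depth. Over all genes, the calls from CD11b+ to F4/80+ cells were 1 higher and 10 lower as reported, 133 and 167 with DESeq2 and 90 and 152 without a filter; those higher from medium tissue to Ht were 257, and 446 with DESeq2, 642 without a filter, 1049 without a fold limit and 2587 with total-count scaling; those lower from con to Lt were 44, and 166, 377, 124 and 22; and from con to Ht total-count scaling gave 8822 higher and 2249 lower in place of 4437 and 4139.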
